A study of Neurospora crassa with 86 samples.

Results

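Nitrogen starvation was compared with the full medium in wild type mycelium of the filamentous fungus Neurospora crassa, over 11 of the 86 libraries of the series. The 2 groups were chosen by their labels, wild type without a nitrogen source (6 libraries) and wild type in Vogel's minimal medium (5 libraries). Both groups were strain FGSC 2489, grown as mycelium for 24 h at 25 °C in constant light, washed in medium without nitrogen and moved for 4 h to the test medium. The full medium held 2% sucrose and 25 mM ammonium nitrate, and the starvation medium held 2% sucrose and no nitrogen source, so the full medium libraries went through the same wash and transfer. The labels describe the replicates as biological and do not name cultures, so a p-value measures a spread between samples. That spread was pooled over all 27 groups of the 86 libraries and is not that of these 11 alone. Starved libraries 1 to 3 and 4 to 6, by label number, were also set against the full medium separately, to see which changes held in both sets.

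Neurospora prefers ammonium and glutamine, and turns to nitrate, purines, amino acids and proteins when these run out. The GATA transcription factor nit-2 drives genes for such sources, nmr restrains it, and nit-4 is the partner factor for nitrate genes, which need nitrate as an inducer. Nitrogen limitation is also a known cue for asexual spore formation and for the female structures of sexual development.

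Transcript levels are FPKM, fragments per kilobase of a gene scaled to the fragments of a library. All differences are starved minus full medium in log2(FPKM + 1), a scale that understates the change of genes at low levels. A gene was called at a Benjamini-Hochberg adjusted p under 0.05 from limma and a difference of at least 1 log2. Values by library are the deposited per-sample FPKM after median-ratio scaling, called scaled FPKM. In RNA from whole mycelium, fewer cells of a kind and less RNA per cell cannot be told apart.

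The starved libraries stood apart in 2 sets, numbers 1 to 3 and 4 to 6. The root mean square log2 difference between 2 libraries was 0.149 to 0.194 within starved 4 to 6, 0.370 to 0.454 within starved 1 to 3, and 0.730 to 0.809 between the sets. Distances to the full medium were 0.665 to 0.890 for starved 1 to 3 and 1.033 to 1.115 for starved 4 to 6. The full medium libraries lay 0.196 to 0.329 apart. Estimated depth ran from 6960000 to 10000000 fragments in starved 1 to 3, 14900000 to 18500000 in starved 4 to 6, 8100000 to 11600000 in full medium 1 to 3 and 13300000 to 15900000 in full medium 4 and 5. Genes listed at 0 numbered 829 to 919 in starved 1 to 3 and 557 to 592 in starved 4 to 6, and the mitochondrial share of FPKM was 0.0120 to 0.0148% and 0.0245 to 0.0249%. In full medium 1 to 3 that share was 0.00858 to 0.00952%, and in full medium 4 and 5 it was 0.0174 to 0.0210%, so the same numbers divided both groups. Between full medium libraries 1 to 3 and 4 to 5 limma called 35 of 8702 genes (0.402%). The part that depth and the mitochondrial share have in the differences between the sets was not tested.

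**Figure D1:**
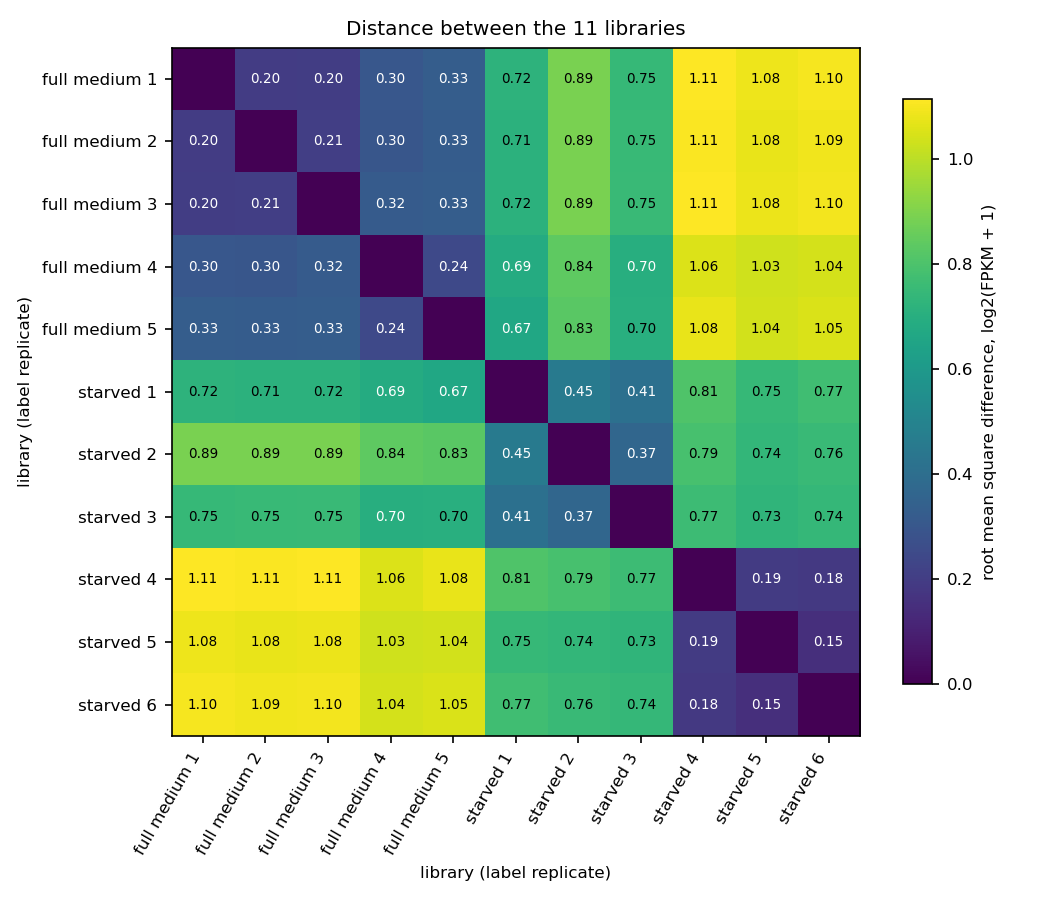
Root mean square difference in log2(FPKM + 1) between each pair of the 11 libraries, by label replicate; darker cells are closer pairs. The blocks of starved 1 to 3 (0.370 to 0.454) and starved 4 to 6 (0.149 to 0.194) are closer within than between (0.730 to 0.809), and starved 4 to 6 are farthest from the full medium.

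Over all 6 starved against 5 full medium libraries, 690 of 8558 genes were called higher (8.06%) and 751 lower (8.78%). Starved 1 to 3 had 443 of 8702 genes higher (5.09%) and 594 lower (6.83%). Starved 4 to 6 had 1103 higher (12.7%) and 1049 lower (12.1%). With the deposited values left unscaled these splits were 728 and 441 for starved 1 to 3 and 1630 and 792 for starved 4 to 6. The median of all genes was then 0.207 and 0.299 log2, against 0.026 and 0.041 after scaling.

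The sets had 310 genes called higher in both (3.56%), 544 lower in both (6.25%) and 7 called in opposite directions (0.0804%). These 854 genes with the same direction were 82.4% of the 1037 called in starved 1 to 3 and 39.7% of the 2152 called in starved 4 to 6. Both comparisons share the full medium libraries. When each set was given its own controls, full medium 1 to 3 and 4 to 5, the shared genes numbered 823, which was 75.0% of 1098 and 39.3% of 2092, and 14 genes went in opposite directions. Genes higher in both had a median difference of 1.40 log2 in starved 1 to 3 and 2.00 in starved 4 to 6, and those lower in both of -1.56 and -2.04. For 168 of the 854 genes the difference between the sets was itself called, and the change was larger in starved 4 to 6 for 163 of them.

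Set directly against each other, starved 1 to 3 had 458 genes higher (5.26%) and 551 lower (6.33%) than starved 4 to 6. Changes called in 1 set alone, with the sets differing, were mostly those of starved 4 to 6, 404 genes higher and 234 lower, against 40 higher and 6 lower in starved 1 to 3. For a further 387 and 266 genes called in starved 4 to 6 alone, and 88 and 42 in starved 1 to 3 alone, the difference between the sets did not pass. Of the 680 single genes called higher over all 6 libraries, 44.1% were higher in both sets, and of the 739 called lower, 71.0% were lower in both. Another 834 genes were called in at least 1 set and not over all 6 libraries.

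**Figure D2:**
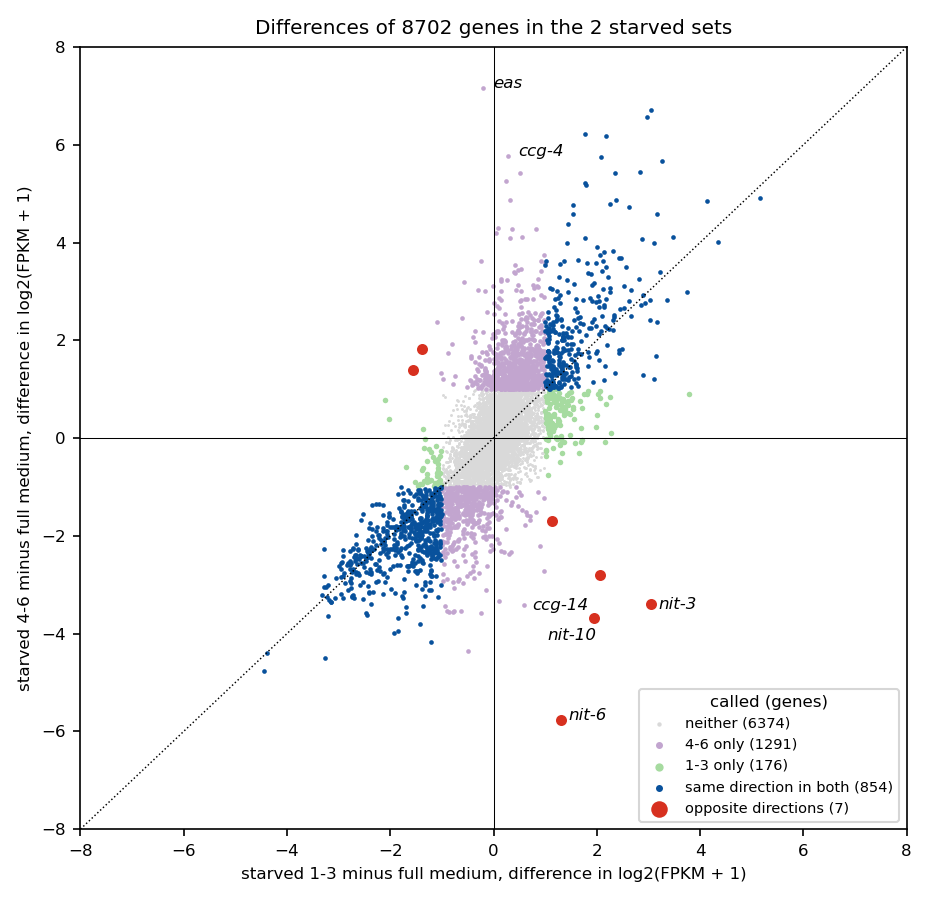
Difference from full medium in starved libraries 1 to 3 (horizontal axis) and 4 to 6 (vertical axis), log2(FPKM + 1), for 8702 genes coloured by the call; the dotted line marks equal differences. The 854 genes called the same way in both lie along the diagonal and mostly above it in size for 4 to 6, and the nitrate genes nit-3, nit-6 and nit-10 lie in the lower right corner.

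The nitrate assimilation genes went in opposite directions in the 2 sets, all 3 of 3 higher in starved 1 to 3 and all 3 lower in starved 4 to 6. Of all genes 0.0804% were called in opposite directions. nit-3 (NCU05298; supercontig 12.4, 5420216 to 5423422), nitrate reductase, was at 380, 522 and 376 scaled FPKM in starved 1 to 3, 2.37, 4.46 and 5.24 in starved 4 to 6, and 49.0, 50.4, 43.5, 71.2 and 42.4 in full medium. The 3 sets of values did not overlap, with full medium in the middle. The difference was 3.04 log2 (SE 0.19, adjusted p = 2.9e-20) for starved 1 to 3 and -3.40 (SE 0.19, adjusted p = 5.2e-24) for starved 4 to 6. Over all 6 libraries it came to -0.14 (SE 0.63, adjusted p = 0.86), a mean of values on both sides of the control.

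nit-6 (NCU04720; supercontig 12.6, 534862 to 539145), nitrite reductase, was at 878, 985 and 633 scaled FPKM in starved 1 to 3, at 2.77, 5.30 and 8.60 in starved 4 to 6, and at 300 to 368 in full medium. It differed by 1.3 log2 (SE 0.32, adjusted p = 3.7e-04) and -5.76 (SE 0.32, adjusted p = 1.7e-24). Over all 6 it was called lower at -2.19 (SE 0.72, adjusted p = 0.0065), a call lost without the starved library numbered 3 (-1.49) or 6 (-1.34) in the joint table and when only these 11 libraries were fitted. nit-10 (NCU07205), the nitrate transporter, was at 1190, 1600 and 975 in starved 1 to 3, 19.8, 24.6 and 27.8 in starved 4 to 6 and 245 to 384 in full medium. Its differences were 1.95 (SE 0.15, adjusted p = 5.8e-17) and -3.68 (SE 0.15, adjusted p = 2.6e-30). The joint table merges nit-10 with NCU11348, and the merged entry differed by -0.26 over all 6 (adjusted p = 0.57).

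With separate controls all 3 nitrate genes kept their opposite calls, at 3.12 and -3.53 for nit-3, 1.21 and -5.63 for nit-6 and 1.76 and -3.39 for nit-10. The other 4 genes called in opposite directions had no symbol. NCU00602 was at 76.1, 203 and 115 in starved 1 to 3, 3.41, 3.38 and 2.81 in starved 4 to 6 and 25.2 to 31.2 in full medium, the same order as the nitrate genes. NCU08355 had that order too, at 18.7 to 31.4, 2.23 to 2.6 and 7.92 to 11.9, and was not called in opposite directions with separate controls. NCU01400 had the reverse order, at 2.2 to 5.11 in starved 1 to 3, 36.7 to 45.6 in starved 4 to 6 and 9.22 to 12.4 in full medium. NCU06719 shared it, at 8.51 to 16, 70.4 to 110 and 27.3 to 41.7. These 4 were named after their values were seen.

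The starved libraries of the other strains in the series, scaled in the same way, are given beside these values. In the 3 starved Δnmr libraries nit-3 was at 7.61, 8.93 and 3.23 scaled FPKM, nit-6 at 6.74, 5.17 and 1.82 and nit-10 at 22.0, 21.9 and 19.7. In the 3 starved libraries labelled Δnit-4 nit-3 was at 1.75, 2.33 and 2.19, nit-6 at 1.28, 1.5 and 1.74 and nit-10 at 9.76, 7.52 and 10.2. All 6 lay below the full medium wild type for each of the 3 genes, as did wild type starved 4 to 6. For the mean profile over 8702 genes, starved 1 to 3 lay 0.555 log2 from starved Δnmr, 0.656 from wild type on alanine, 0.668 from wild type on glutamate, 0.684 from the starved libraries labelled Δnit-4 and 0.71 from wild type in full medium. Starved 4 to 6 lay 0.722, 0.928, 0.884, 0.514 and 1.059 from them, and 0.716 from starved 1 to 3. Those groups were picked as the nearest to starved 1 to 3, and not all were nearest to starved 4 to 6. The libraries labelled Δnit-4 on nitrate lay 0.764 from starved 1 to 3 and 0.745 from starved 4 to 6.

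Of 8 nitrogen regulators 1 was called over all 6 libraries, lower, against 8.78% of all genes, so the count is near that share. nit-2 was at 45.5, 33.9 and 36.1 scaled FPKM in starved 1 to 3, 31.8, 31.9 and 33.3 in starved 4 to 6 and 43.1 to 48.5 in full medium. Its difference over all 6, -0.36 (SE 0.09, adjusted p = 2.8e-04), was under the 1 log2 limit. nit-4 was not called, at 3.43 ± 0.644 FPKM starved (SD, n = 6) against 3.39 ± 0.268 (n = 5). cpc-1, the bZIP factor of cross-pathway control of amino acid synthesis, was at 1820, 1340 and 1220 in starved 1 to 3, 671, 677 and 669 in starved 4 to 6 and 1950 to 2300 in full medium. Both starved sets lay below the full medium, and the call was made in starved 4 to 6 (-1.69, adjusted p = 1.1e-18) and not in starved 1 to 3 (-0.59). The call over all 6 (-1.11) was lost without the starved library numbered 2, 3 or 6 in the joint table (-0.99 each).

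nmr (NCU04158), whose product binds nit-2, was at 8.55, 12.6 and 10.8 scaled FPKM in starved 1 to 3, at 26.8, 27.3 and 28.2 in starved 4 to 6 and at 12.4 to 16.2 in full medium. It was lower in starved 1 to 3 than in 4 to 6 by -1.3 log2 (SE 0.11, adjusted p = 2.0e-15; -1.03 with separate controls), while neither set was called against full medium (-0.40 and 0.90). sub-1, a transcription factor needed for fruiting body development, behaved alike with 12.3 ± 1.65, 28 ± 1.46 (n = 3 each) and 14.7 ± 2.07 (n = 5); its set difference of -1.13 fell to -0.87 and lost its call with separate controls. pco-1, a regulator of purine use, was at 13.8 ± 1.14, 16.4 ± 0.423 and 11.6 ± 0.622 and stayed under the limit (0.23 and 0.46). asd-4, a GATA factor of sexual development, was at 9.07 ± 2.46, 12.5 ± 0.629 and 13.6 ± 1.33, and sre, the GATA factor of iron uptake, at 11.3, 13.9 and 13.7 as means; neither was called.

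Of 5 genes of ammonium and glutamate metabolism 1 was called in starved 1 to 3, higher, against 5.09% of all genes. Starved 4 to 6 had 2 higher, against 12.7%, and 2 lower, against 12.1%. gln-2 (NCU04856), a glutamine synthetase subunit, was at 878, 1760 and 1430 scaled FPKM in starved 1 to 3, 877, 1090 and 1090 in starved 4 to 6 and 323 to 415 in full medium. It rose in both sets, by 1.83 (SE 0.19, adjusted p = 2.0e-12) and 1.47 (SE 0.19, adjusted p = 6.6e-10), and the sets did not differ by the test (0.36, adjusted p = 0.15). gln-1, the other subunit gene, was at 368 to 423, 190 to 208 and 584 to 640, below the full medium in both sets without overlap, and it passed in starved 4 to 6 alone (-1.64 against -0.66). Its call over all 6 (-1.12) was lost without the starved library numbered 6 in the joint table (-1.0).

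am, the NADP-dependent glutamate dehydrogenase that fixes ammonium, was at 946, 920 and 666 scaled FPKM in starved 1 to 3 and 396, 449 and 484 in starved 4 to 6, below the 1350 to 1700 of full medium. gdh-1, the NAD-dependent enzyme that releases ammonium, was at 17.1, 23.8 and 25.0 and at 42.1, 42.6 and 43.4, above the 10.4 to 12.8 of full medium. Both passed in starved 4 to 6 (-1.79 and 1.83) and missed the limit in starved 1 to 3 (-0.87 and 0.88), and the set difference was called for neither (0.92 and -0.95). en(am)-2, glutamate synthase, was not called in any comparison, at 84.1 ± 19.4 FPKM (SD, n = 6) against 102 ± 2.24 (n = 5).

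Of the 4 amino acid permease genes pmg rose in both sets, against 3.56% of all genes, and mtr fell in both, against 6.25%. pmg (NCU03509), the general amino acid permease, was at 743, 1010 and 511 scaled FPKM in starved 1 to 3, 1110, 1360 and 1330 in starved 4 to 6 and 212 to 257 in full medium. No starved library overlapped the full medium, and the differences were 1.68 (SE 0.15, adjusted p = 8.3e-15) and 2.48 (SE 0.15, adjusted p = 1.4e-22). mtr, the neutral and aromatic amino acid permease, was at 208, 265 and 163 in starved 1 to 3, 30.2, 60.2 and 49.8 in starved 4 to 6 and 402 to 512 in full medium. Its fall was larger in starved 4 to 6 (-3.26 against -1.08; set difference 2.18, adjusted p = 2.8e-08). The call in starved 1 to 3 was lost without library 3 (-0.90), with separate controls (-0.97) and without scaling (-0.83). pmb, the basic amino acid permease, fell in starved 4 to 6 (33.4 against 89.4 as means; -1.40) and was at 70.8 in starved 1 to 3 (-0.37).

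Both purine breakdown genes rose in both sets, against 3.56% of all genes. xdh-1 (NCU03350), xanthine dehydrogenase, was at 15.4, 58.8 and 41.8 scaled FPKM in starved 1 to 3, 48.4, 49.0 and 53.4 in starved 4 to 6 and 10.9 to 12 in full medium, so that library 1 was the lowest starved one and still above the full medium. It rose by 1.5 (SE 0.20, adjusted p = 1.9e-09) and 2.06 (SE 0.20, adjusted p = 2.3e-14). aln-1, allantoinase, was at 39.4, 129 and 40.6 and at 132, 131 and 126, against 18.9 to 28.8. It rose by 1.31 and 2.43, and starved 1 to 3 without library 2 gave 0.76, under the limit. Of the 2 autophagy genes, atg-8, whose product coats autophagosomes, rose in both sets, against 3.56% of all genes. It was at 814, 1220 and 1040 and at 888, 884 and 893 against 323 to 510 (1.40 and 1.21, and 0.97 for starved 4 to 6 with its own controls). apg-1, the gene of a kinase that starts autophagy, was at 15.1 to 29.4, 48.1 to 52.1 and 12.6 to 15.3, and rose in starved 4 to 6 only by the call (1.75 against 0.53; set difference -1.21, or -0.99 without starved library 3).

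**Figure D3:**
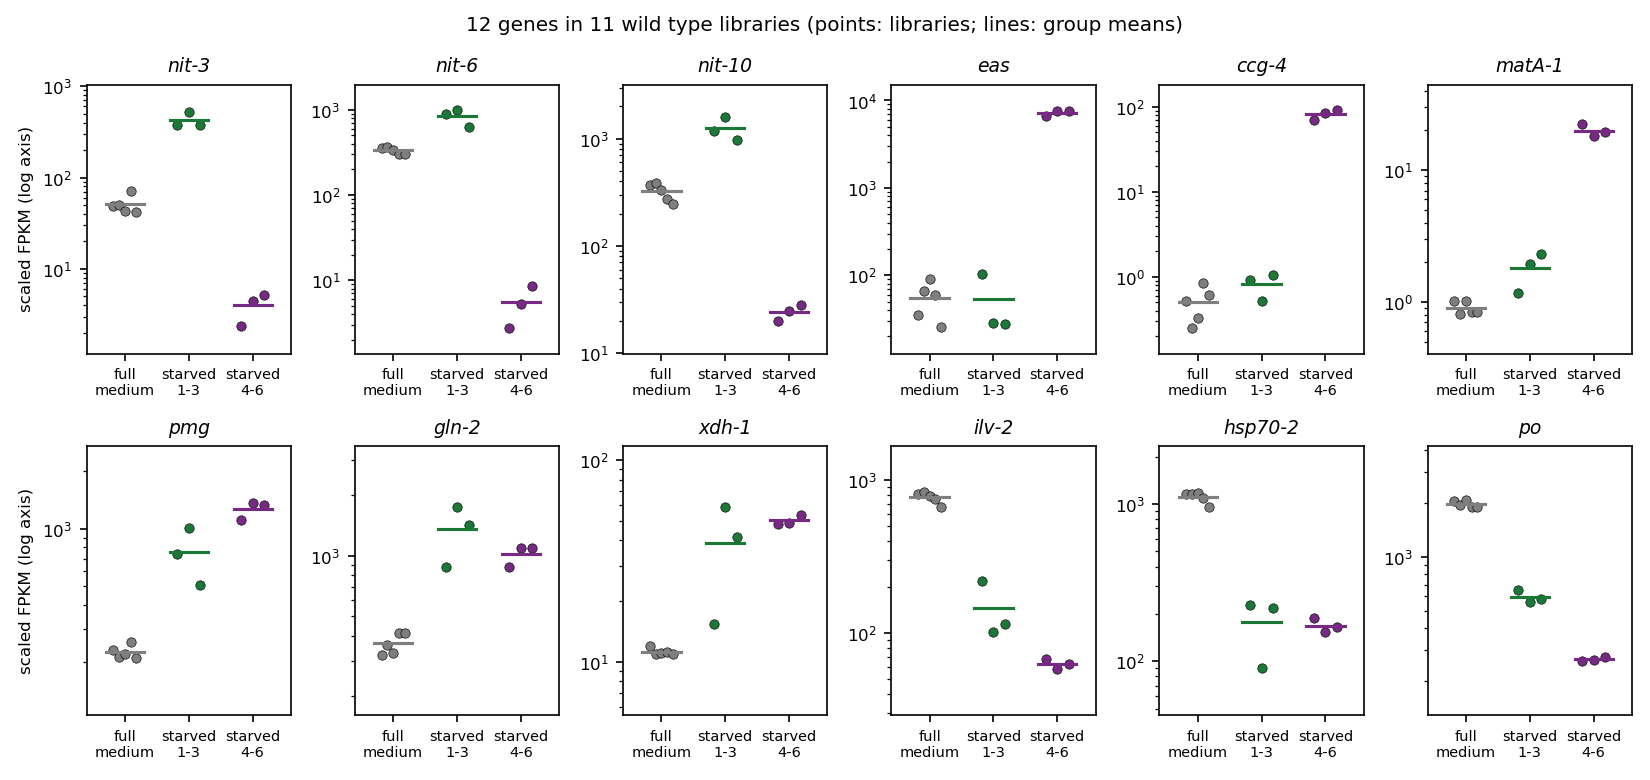
Scaled FPKM of 12 genes (log axis) in full medium (grey, 5 libraries), starved 1 to 3 (green) and starved 4 to 6 (purple); points are libraries and lines are means. nit-3, nit-6 and nit-10 sit on opposite sides of the full medium, eas, ccg-4 and matA-1 are high in starved 4 to 6 alone, and the lower row shows genes that moved the same way in both sets.

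Genes listed under amino acid synthesis fell broadly. The 5 lists were drawn by gene symbol, so a member need not be an enzyme that makes an amino acid. Of their 58 genes 41 were called lower over all 6 libraries and 0 higher, against 8.78% and 8.06% of all genes. In starved 1 to 3 18 were lower, against 6.83% of all genes, and 1 higher, against 5.09%. In starved 4 to 6 52 were lower, against 12.1%, and 0 higher, against 12.7%. The 18 were lower in both sets, against 6.25%. The median difference was -0.83 and -1.85 log2, beside 0.026 and 0.041 over all genes tested. For 33 of the 58 the set difference was called, each with the lower level in starved 4 to 6, against 5.26% of all genes.

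In the branched-chain list 8 of 9 genes were called lower over all 6 libraries, against 8.78% of all genes. ilv-2 (NCU03608), ketol-acid reductoisomerase, was at 219, 101 and 114 scaled FPKM in starved 1 to 3, 68.0, 58.3 and 63.0 in starved 4 to 6 and 661 to 833 in full medium, with no overlap. It fell by -2.48 (SE 0.26, adjusted p = 1.8e-12) and -3.58 (SE 0.26, adjusted p = 3.9e-19). The set difference of 1.10 was under the limit without starved library 1 (0.76) and with separate controls (0.90). leu-2, of leucine synthesis, was at 74.1, 56.6 and 43.6, at 7.30, 7.55 and 7.39 and at 80.7 to 108, and its fall was called in starved 4 to 6 (-3.54) and not in 1 to 3 (-0.76; set difference 2.78, adjusted p = 3.2e-14). leu-4, α-isopropylmalate synthase, was at 38.0 ± 10.2, 13.9 ± 0.537 (SD, n = 3 each) and 73.8 ± 3.04 (n = 5), and missed the limit in starved 1 to 3 at -0.97 (called at -1.0 with its own controls). ilv-5 was the gene called higher, in starved 1 to 3 at 81.6 ± 19.2 against 43.2 ± 25.5 (1.02, adjusted p = 7.9e-05), with 55.0 ± 1.97 in starved 4 to 6 (0.49, not called). Both starved sets overlapped the full medium for ilv-5.

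Arginine synthesis had 8 of 11 genes lower over all 6, 2 in starved 1 to 3 and 9 in starved 4 to 6. Of all genes 8.78%, 6.83% and 12.1% were lower in these comparisons. arg-2 and arg-3, the small and large subunit genes of the arginine-specific carbamoyl-phosphate synthetase, were the 2 lower in both. arg-3 was at 44.0, 23.4 and 27.4 scaled FPKM, at 11.5, 9.38 and 10.5, and at 99.2 to 114 in full medium (-1.78 and -3.24). arg-2 was at 105 to 161, 93.7 to 105 and 349 to 384, with differences of -1.51 and -1.87 that did not differ by 1 log2 (0.36). arg-5, acetylornithine aminotransferase, and arg-10, argininosuccinate lyase, fell in starved 4 to 6 (-3.53 and -2.89), while starved 1 to 3 missed the limit (-0.90 and -0.91; arg-5 was called at -1.11 with its own controls), and the sets differed (2.63 and 1.98, adjusted p = 7.0e-13 and 1.2e-11).

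In the aromatic list all 10 genes fell in starved 4 to 6 and 4 in starved 1 to 3, against 12.1% and 6.83% of all genes. The 3 isozyme genes of the entry enzyme, DAHP synthase, were aro-6, aro-7 and aro-8. aro-6 was at 72.8, 33.3 and 44.1 scaled FPKM, 18.2, 15.4 and 19.0, and 145 to 168 in full medium (-1.74 and -3.14). aro-8 was at 53.0 to 121, 16 to 21.3 and 139 to 171 (-1.02 and -3.0), and its call in starved 1 to 3 was lost without starved library 2 (-0.96) or 3 (-0.75), without full medium library 2 or 3 (-0.98 and -0.99) and without scaling (-0.78). aro-7 was at 186 to 348, 42.7 to 49.8 and 371 to 408, and missed the limit in starved 1 to 3 (-0.76) but not in 4 to 6 (-3.07). aro-3, chorismate synthase, fell in both at 55.4 ± 23.3 and 15.9 ± 1.18 (SD, n = 3 each) against 134 ± 3.81 (n = 5). Of the members listed by a trp symbol, trp-4 and trp-5 were at the full medium level in starved 1 to 3 (-0.01 and 0.06). Both fell in starved 4 to 6 (-1.54 and -1.26).

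Histidine and lysine synthesis had 6 of 8 genes lower over all 6 libraries, against 8.78% of all genes. Lower in both sets were 4, against 6.25%, the lysine genes lys-3, lys-5, lys-6 and lys-7. lys-3 was at 49.2, 23.4 and 23.9 scaled FPKM, 6.54, 6.76 and 6.11, and 74.8 to 88.5 in full medium (-1.37 and -3.43). The call of lys-5 in starved 1 to 3 (-1.24) was lost without library 2 (-0.94) and was -1.0 without scaling. In the methionine, cysteine, serine and threonine list 13 of 20 were lower over all 6, against 8.78% of all genes. Starved 1 to 3 had 6 lower, against 6.83%, and starved 4 to 6 had 18, against 12.1%. for (NCU02274), serine hydroxymethyltransferase, was at 263, 114 and 167, 35.5, 41.6 and 41.7, and 552 to 657 (-1.85 and -3.94; set difference 2.09, adjusted p = 1.1e-10). met-8, methionine synthase, was at 853 to 1160, 408 to 462 and 2100 to 2360 (-1.12 and -2.34). cys-11, ATP sulfurylase, was at 170, 45.3 and 119, 25.0 to 26.1 and 211 to 245 (-1.21 and -3.10), and cys-2 at 76.6, 22.3 and 66.0, 13 to 14.8 and 96.9 to 124 (-1.12 and -2.82). Without starved library 2 the differences of cys-11, cys-2 and met-8 in starved 1 to 3 were -0.67, -0.57 and -0.99, under the limit. Without scaling cys-11, cys-2 and met-8 also missed it there (-0.97, -0.88 and -0.87).

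**Figure D4:**
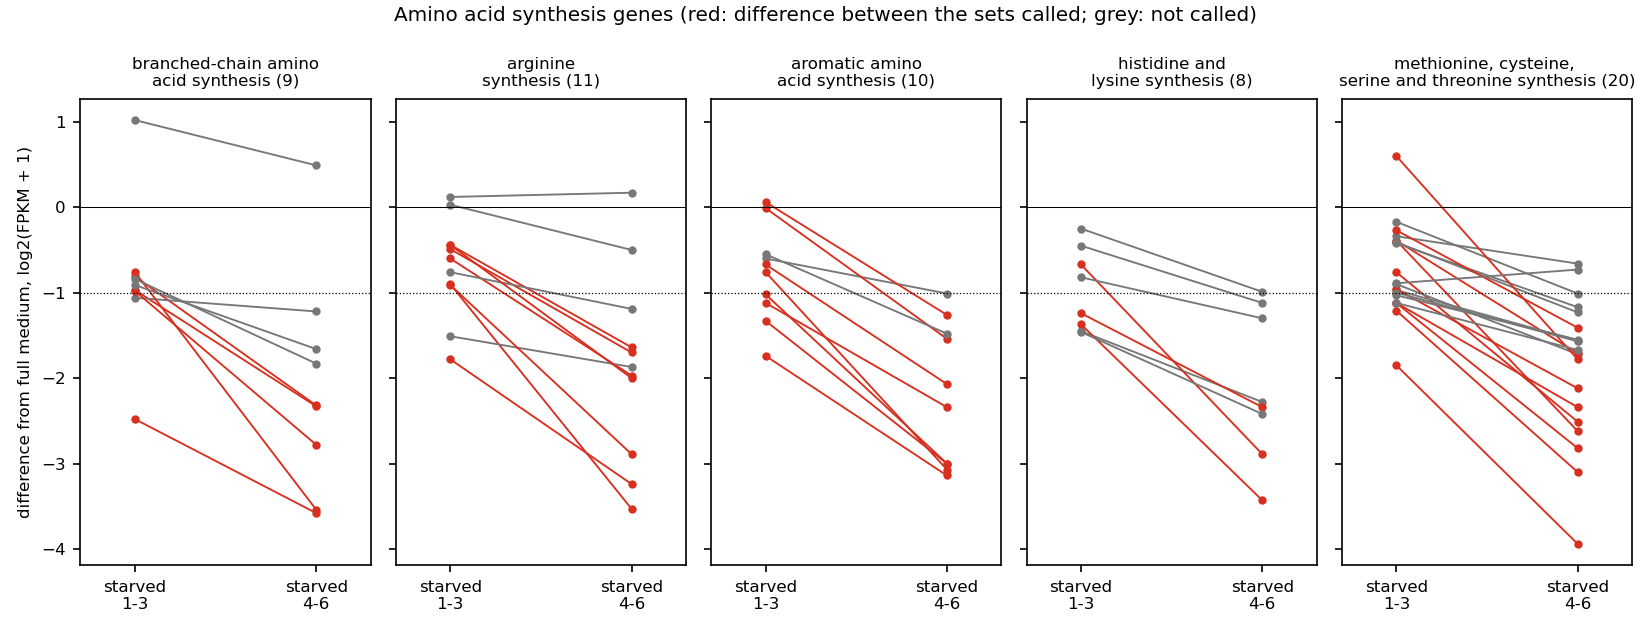
Difference from full medium, log2(FPKM + 1), of each gene in the 5 amino acid synthesis lists, drawn by symbol, in starved 1 to 3 and 4 to 6. The number of genes is in brackets. A line joins the values of a gene, red where the set difference was called. The 33 red lines all run downwards, and 52 of the 58 genes were called lower in starved 4 to 6 against 18 in starved 1 to 3.

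Polyamine synthesis fell in both sets. spe-1, ornithine decarboxylase, was at 141, 65.3 and 116 scaled FPKM in starved 1 to 3, 74.5, 66.8 and 67.3 in starved 4 to 6 and 254 to 310 in full medium (-1.38 and -1.93). spe-2, S-adenosylmethionine decarboxylase, was at 10.1 to 18.8, 13.7 to 15.7 and 44.8 to 57.4, with the same difference of -1.69 in each set. spe-3, spermidine synthase, was at 107 to 121, 59.7 to 64.9 and 266 to 346 (-1.47 and -2.30). aga-1, arginase, was below the full medium in all 6 starved libraries, at 67.1 to 81.1 and 42.1 to 46.4 against 122 to 142, and passed in starved 4 to 6 (-1.59) and not in 1 to 3 (-0.81).

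Of 8 genes of purine and pyrimidine synthesis 6 were lower over all 6 libraries, against 8.78% of all genes, 4 of them in both sets, against 6.25%. ad-7, the amidotransferase that starts purine synthesis, was at 11.1, 2.66 and 14.9 scaled FPKM, 6.02, 3.95 and 5.07, and 55.1 to 60.1 in full medium. It fell by -2.70 (SE 0.31, adjusted p = 2.8e-11) and -3.28 (SE 0.31, adjusted p = 1.0e-14). pyr-3, which carries the first steps of pyrimidine synthesis, was at 50.8, 14.2 and 42.5, 19.7, 17.1 and 19.5, and 164 to 192 (-2.42 and -3.14). For both genes starved library 2 was the lowest of all, and the set difference was not called (0.58 and 0.72). ad-5 fell more in starved 4 to 6 (-2.83 against -1.19, and -0.95 for starved 1 to 3 without scaling), and ad-4, adenylosuccinate lyase, fell by -1.51 and -2.11. pyr-4, orotidine decarboxylase, was not called, at 187, 196 and 130 as means.

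All 9 ribosomal protein genes with a crp, rap or po symbol fell in both sets, against 6.25% of all genes. po (NCU07408) was at 655, 557 and 584 scaled FPKM in starved 1 to 3, 259, 265 and 273 in starved 4 to 6 and 1900 to 2100 in full medium, 3 ranges without overlap. It fell by -1.73 (SE 0.22, adjusted p = 5.5e-10) and -2.89 (SE 0.22, adjusted p = 1.7e-18), and the set difference of 1.17 was called (adjusted p = 4.4e-05). crp-10 was at 324 to 434, 174 to 189 and 1080 to 1200, and its set difference of 1.01 was under the limit with separate controls (0.95), without scaling (0.93) and without starved library 1 (0.90) or 4 (0.97). The set difference was called for 5 of the 9, each lower in starved 4 to 6, against 5.26% of all genes, and the medians were -1.38 and -2.35. eif5A, a translation factor that carries a spermidine-derived residue, was at 1370 to 1640, 1080 to 1170 and 2530 to 3000, below the full medium in each starved library. It passed in starved 4 to 6 (-1.29, or -0.96 without scaling, not called) and missed the limit in starved 1 to 3 (-0.89). Its list, ribosome making and translation, held 3 genes. In starved 4 to 6 1 was lower, against 12.1% of all genes, and 1 higher, against 12.7%. rrp3, also of that list, lay above the full medium in every starved library.

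Genes for importing proteins into mitochondria fell in 15 of 27 cases over all 6 libraries, against 8.78% of all genes, with 13 in starved 1 to 3 against 6.83%, 18 in starved 4 to 6 against 12.1% and 12 in both against 6.25%. tim23, the channel of the inner membrane translocase, was at 17.4, 15.4 and 18.6 scaled FPKM, 14.2, 13.3 and 13.7, and 56.9 to 72.2 in full medium. It fell by -1.87 (SE 0.14, adjusted p = 4.7e-17) and -2.16 (SE 0.14, adjusted p = 8.5e-21), and the sets differed by 0.29 (adjusted p = 0.11). tim44, the motor anchor, fell to 20.6 to 32.9 and 15.8 to 16.9 from 76.7 to 99.1 (-1.80 and -2.39), and tim54 to 3.57 to 4.27 and 3.59 to 3.91 from 11.2 to 19.4 (-1.76 and -1.81). Receptors and the pore of the outer membrane were among those lower in both, tom20 (-1.52 and -1.75), tom22 (-1.47 and -1.94), tom40 (-1.43 and -1.66) and tom70 (-1.43 and -1.06; -0.94 for starved 4 to 6 with its own controls, not called). oxa-2, of the inner membrane insertion machinery, was at 0.621 to 1.15 and 0.0449 to 0.284 against 5.22 to 8.39 (-2.15 and -2.78). tom5 and mim1 were not called (0.81 and 0.68; 0.30 and -0.22). In this list 1 gene differed between the sets, tim14 (1.02), higher in starved 1 to 3, against 5.26% of all genes.

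The mitochondrial chaperonin gene hsp60 was at 28.8, 43.0 and 74.2 scaled FPKM, 17.4 to 18.8 and 142 to 196 (-1.91 and -3.17), and its set difference of 1.26 was under the limit without starved library 3 (0.91) and with separate controls (0.93). hsp70-2, the gene of a 70 kDa heat shock protein, fell by nearly the same amount in each set, at 227, 90.9 and 217, 188, 153 and 165, and 955 to 1170 (-2.73 and -2.70; SE 0.33 each). hsp70-5 fell too (-1.87 and -2.59). These were the 3 of 11 heat shock genes lower over all 6, against 8.78% of all genes. Starved 4 to 6 had 5 of the 11 lower, against 12.1%, and the list medians were -0.48 and -0.98. hsp88 and hsp70-1 also lay below the full medium in every starved library. Among the others hsp30, hsp98, grp78 and hsp90a were not called (0.39 and 0.25, 0.43 and 0.01, 0.26 and -0.06, 0.25 and -0.52, in that order).

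Among 18 genes of the respiratory chain outside complex I and of ATP synthase, 7 were lower over all 6, against 8.78% of all genes, and 6 of them in both sets, against 6.25%. ndi-1, an alternative NADH dehydrogenase, was at 2.93, 2.83 and 4.07 scaled FPKM, 1.58, 1.64 and 1.95, and 14.3 to 20.2 in full medium (-2.12 and -2.76). cyc-1, cytochrome c, was at 329 to 479, 182 to 210 and 1140 to 1270 (-1.56 and -2.61); its set difference of 1.05 was 0.97 without scaling and 0.93 without starved library 1. nde-2, another alternative dehydrogenase, cya-5, cyt-2, cytochrome c haem lyase, and atp-2, the β subunit of ATP synthase, also fell in both (-1.40 and -1.93, -1.57 and -1.74, -1.47 and -1.06, -1.37 and -1.34). The 29 nuclear genes of complex I held 0 calls in any of the 3 comparisons with full medium, with medians of 0.08 and -0.07 and an unadjusted p under 0.05 in 10 of 29 over all 6, 11 in starved 1 to 3, 18 in starved 4 to 6 and 20 between the sets.

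Asexual development genes separated the sets. eas (NCU08457; supercontig 12.2, 3570905 to 3572798), the hydrophobin that coats the spores, was at 103, 28.5 and 27.7 scaled FPKM in starved 1 to 3, 6690, 7620 and 7540 in starved 4 to 6, and 35.1, 65.6, 89.4, 59.4 and 25.4 in full medium. Starved 1 to 3 overlapped the full medium (-0.20, SE 0.37, adjusted p = 0.68) and starved 4 to 6 lay far above both (7.16, SE 0.37, adjusted p = 7.1e-26; 7.51 with separate controls). The set difference was -7.35 (SE 0.41, adjusted p = 1.5e-23). The call over all 6 (3.51, SE 0.74, adjusted p = 3.8e-05) rested on starved 4 to 6 and was lost when only these 11 libraries were fitted. In the starved Δnmr libraries eas was at 232, 200 and 317, and in those labelled Δnit-4 at 190, 137 and 217.

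Of 13 conidiation genes 6 were called higher over all 6 libraries, against 8.06% of all genes, and 6 in starved 4 to 6, against 12.7%. Starved 1 to 3 had 3 higher and 1 lower, against 5.09% and 6.83%, and 6 were lower there than in starved 4 to 6, against 6.33%. con-8 was at 17.7, 12.1 and 10.8 scaled FPKM, 145, 113 and 143, and 2.64 to 5.40 in full medium, so it rose in both sets, and more in the second (1.54 and 4.77; set difference -3.23, adjusted p = 4.8e-10). con-10 rose in both at 6.68 ± 1.25 and 19.2 ± 1.25 (SD, n = 3 each) against 2.38 ± 0.801 (n = 5), and its set difference of -1.41 lost its call with separate controls (-1.03). ccg-1, a clock-controlled gene that glucose represses, rose in both (1.14 and 3.05), with full medium library 5 at 3100 against 1020 to 1280 in the other 4 and starved 1 to 3 at 2200 to 4050; its call in starved 1 to 3 was lost without library 3 (0.93), and its set difference of -1.90 came to -0.97 with separate controls. fl, the fluffy regulator of conidiation, was at 24.3, 57.8 and 17.8 as means, higher in starved 4 to 6 (1.65) and not called in 1 to 3 (0.41). acon-3 was at 0.852 to 1.52, 7.20 to 8.53 and 0.700 to 1.17, called in starved 4 to 6 alone (2.16; set difference -2.07), and its call over all 6 (1.11) was lost without the starved library numbered 2, 3 or 6 in the joint table (0.91, 0.94 and 0.90). con-6 was at 2.58 to 4.04, 6.44 to 8.08 and, in full medium, 19.8, 24.9 and 24.3 in libraries 1 to 3 but 1.80 and 1.2 in libraries 4 and 5. It was called lower in starved 1 to 3 (-1.22) and not in 4 to 6 (-0.28). With separate controls it was lower in the first (-2.53) and higher in the second (1.68), so its direction followed the controls used.

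Summed over con-6, con-8, con-10, con-13, eas and fl, markers of asexual spore development, the level was 69.0 to 159 scaled FPKM in starved 1 to 3, 6930 to 7820 in starved 4 to 6 and 52.5 to 138 in full medium. Without eas it was 41.3 to 55.6, 197 to 235 and 27.1 to 48.7, so that starved 4 to 6 lay above the other 2 groups either way. None of the 6 was at 0 in every library of a group, and 1 was at 0 in at least 1 full medium library. The part of spore development in the other differences between the sets was not tested.

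A few sexual development genes also differed between the sets. By the test 4 of 25 were lower in starved 1 to 3 than in 4 to 6, against 6.33% of all genes. Another 1 was higher there, against 5.26%. ccg-4 (NCU02500), the pheromone precursor of mating type A, was at 0.922, 0.521 and 1.04 scaled FPKM in starved 1 to 3, 69.5, 83.7 and 91.4 in starved 4 to 6 and 0.250 to 0.852 in full medium. It rose in starved 4 to 6 by 5.78 (SE 0.24, adjusted p = 7.0e-30) and not in 1 to 3 (0.28), and the call over all 6 (3.01) was lost in a fit of only these 11 libraries. matA-1, a regulator in the mating type locus, was at 1.16, 1.94 and 2.30, 22.3, 18 and 19.3, and 0.813 to 1.02 (0.54 and 3.45; set difference -2.92, adjusted p = 2.5e-14). In the starved Δnmr libraries ccg-4 was at 17.1, 19.6 and 18.7 and matA-1 at 2.21, 3.52 and 6.27, and in those labelled Δnit-4 ccg-4 was at 11.4, 8.31 and 12.5 and matA-1 at 13.7, 10.8 and 14.8.

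mfa-1, the pheromone precursor of mating type a, was at 3.58 to 4.55, 5.30 to 5.50 and 1.13 to 2.07, above the full medium in every starved library (0.95 and 1.26; the first missed the limit, and was called at 1.04 with its own controls). poi-2, a sexual development gene, was at 10.8, 8.55 and 4.99, 0.596, 1.29 and 0.889, and 5.16 to 13.1, and fell in starved 4 to 6 alone (-2.54; set difference 2.2); its call over all 6 (-1.39) was lost in a fit of only these 11 libraries. In all 3 of 25 sexual development genes were higher and 1 lower over all 6 libraries, against 8.06% and 8.78% of all genes, and 4 and 2 in starved 4 to 6, against 12.7% and 12.1%, which are shares near those of all genes. In starved 1 to 3 limma called 0 of the 25, and 11 had an unadjusted p under 0.05. The sum of mfa-1, pre-1, pre-2, ccg-4 and poi-2 was 11.7 to 16.7 in starved 1 to 3, 78.1 to 101 in starved 4 to 6 and 8.96 to 16.5 in full medium. Without ccg-4, a sum added after the values were seen, it was 10.6 to 15.8, 8.6 to 9.64 and 8.11 to 16.1, so that starved 4 to 6 lay below starved 1 to 3 and within the full medium range. That order of the sum was the order of poi-2 and not of the other markers left in it. Each library of starved 4 to 6 lay above starved 1 to 3 and above the full medium for mfa-1, pre-1 and pre-2. Levels over the 6 starved libraries were low, 0.738 to 1.65 for pre-1 and 0.344 to 1.76 for pre-2.

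**Figure D5:**
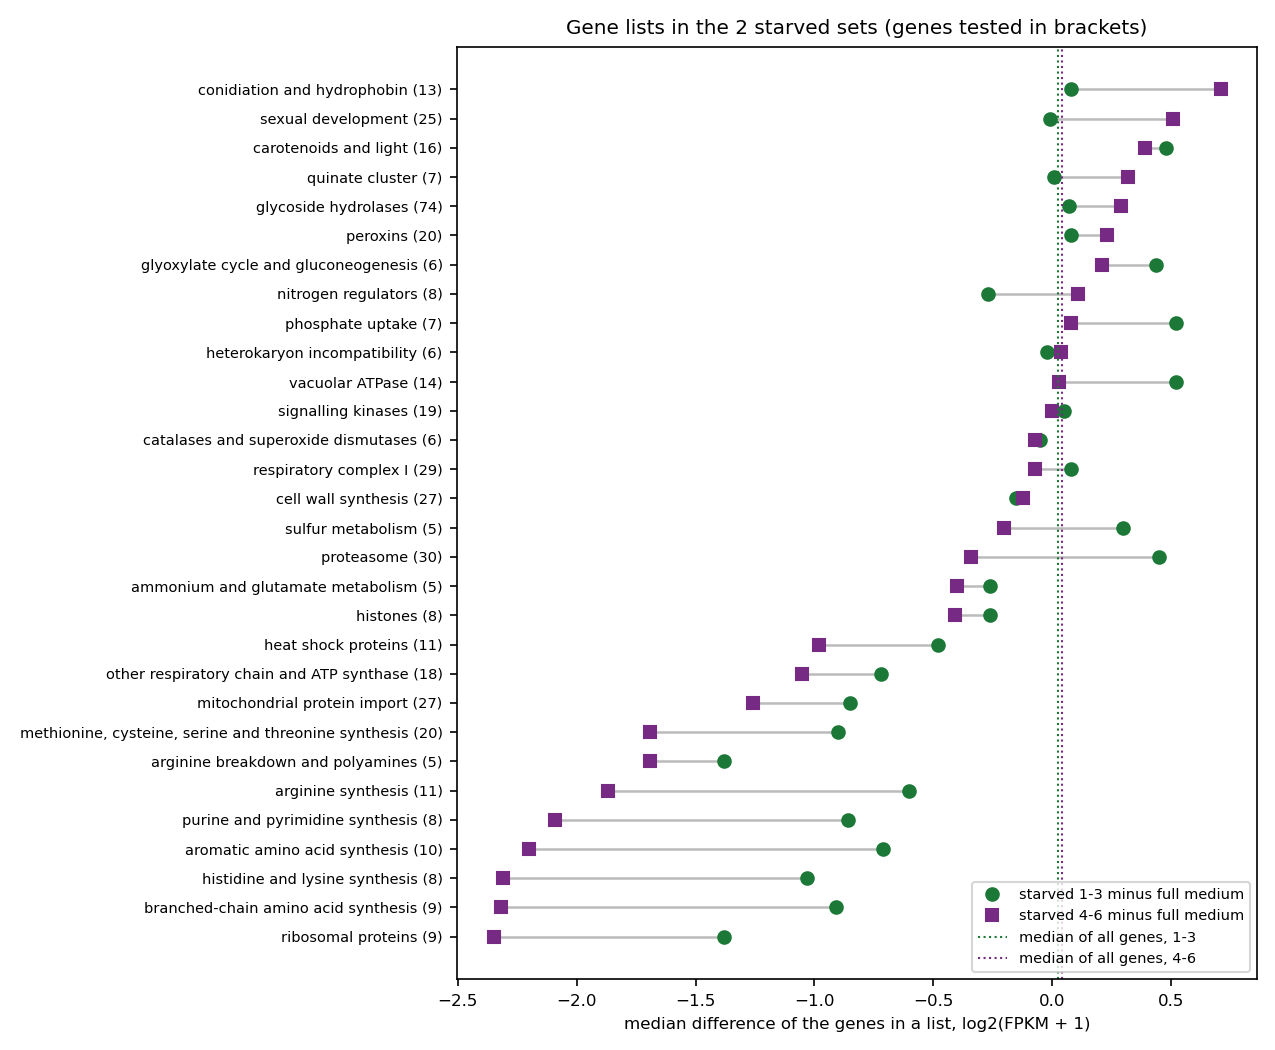
Median difference from full medium, log2(FPKM + 1), of the genes of each list with at least 5 genes tested, in starved 1 to 3 (green circles) and 4 to 6 (purple squares); dotted lines are the medians of all genes (0.026 and 0.041). Ribosomal proteins (-1.38 and -2.35), polyamines with arginine breakdown (-1.38 and -1.69) and purine and pyrimidine synthesis (-0.86 and -2.09) lie on the lower side, and conidiation (0.08 and 0.71) and sexual development (-0.01 and 0.51) separate on the upper side.

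Genes of light and carotenoids rose in part. Over all 6 libraries 3 of 16 were higher, against 8.06% of all genes, and 1 lower, against 8.78%. Starved 1 to 3 had 2 higher, against 5.09%. Starved 4 to 6 had 4 higher, against 12.7%, and 1 lower, against 12.1%. al-1, phytoene desaturase, was at 62.5, 78.1 and 64.2 scaled FPKM, 220, 196 and 215, and 25.1 to 31.6 in full medium, higher in both sets (1.25 and 2.87). al-2, phytoene synthase, was at 248 to 323, 377 to 404 and 134 to 188 (0.84, not called, and 1.28). The light sensors wc-1, wc-2 and vvd and the clock gene frq were not called, although wc-2 and vvd lay above the full medium in every starved library. ccg-14, another clock-controlled gene, was at 435, 276 and 156, 11.2, 21.5 and 15.7, and 112 to 327, so starved 1 to 3 overlapped the full medium (0.59) and starved 4 to 6 fell (-3.41; set difference 4.00, adjusted p = 2.2e-08). Its call over all 6 (-1.37) was lost without the starved library numbered 2, 3 or 6 in the joint table (-0.97, -1.05 and -0.87), without full medium 3 or 4 of that table (-1.35 and -1.16) and in a fit of only these 11 libraries.

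Both media held sucrose, and a few named genes of carbon metabolism changed. Of 6 genes of the glyoxylate cycle and gluconeogenesis 2 were higher over all 6 libraries and in starved 1 to 3, against 8.06% and 5.09% of all genes. Starved 4 to 6 had 3 higher, against 12.7%, and 1 lower, against 12.1%. hgt-1, a high-affinity glucose transporter, was at 60.8, 39.4 and 70.0 scaled FPKM, 187, 160 and 181, and 15.3 to 29.3 in full medium (1.19 and 2.84; 0.96 for starved 1 to 3 with its own controls). fbp-1, by its name the gluconeogenic fructose bisphosphatase, was at 43.7, 117 and 101, 213, 171 and 187, and 18.2 to 22.1 (1.95 and 3.18); its set difference of -1.23 lost its call without starved library 1 (-0.80) and with separate controls (-1.04). acu-9, malate synthase, was at 87.6, 196 and 158, 118 to 133 and 46.2 to 77.1 (1.27 and 1.13; 0.80 for starved 4 to 6 with its own controls). acu-6, phosphoenolpyruvate carboxykinase, was at 12.2, 102 and 38.5, 39.1 to 46.7 and 8.07 to 50.0, with overlap through full medium library 5. Its calls (1.26 and 1.5) were lost without starved library 2 (0.53 for starved 1 to 3), in a fit of only these 11 libraries and, for starved 4 to 6, with separate controls (0.59). The other 4 genes of that list went several ways. acu-15 differed by 0.72 and 1.03 and acu-3 by -0.71 and -1.15, called in starved 4 to 6 alone, while acu-5 (0.16 and -0.77) and acu-8 (-0.66 and -0.60) were not called. inv, invertase, which splits sucrose, was at 109, 43.2 and 53.0, 7.85, 12 and 11.8, and 113 to 145, lower in starved 4 to 6 (-3.44) and not called in 1 to 3 (-0.95; set difference 2.49, adjusted p = 1.2e-05).

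Of 74 genes named as glycoside hydrolases 3 were higher over all 6 libraries, against 8.06% of all genes, with 1 higher in starved 1 to 3 against 5.09%. Starved 4 to 6 had 15 higher against 12.7% and 1 lower against 12.1%, and 9 were lower in starved 1 to 3 than in 4 to 6 against 6.33%. gh2-2 was at 3.66 to 3.95, 10.9 to 11.7 and 1.47 to 1.84 (0.83 and 2.19) and gh61-6 at 6.78 to 9.81, 23.1 to 25.4 and 4.87 to 6.51 (0.48 and 1.93). gh3-3 was at 1.19 to 1.96, 12.7 to 15.7 and 1.15 to 5.00, higher in starved 4 to 6 alone (2.2), as was gh47-5 at 0.847 to 1.12, 6.32 to 7.46 and 1.2 to 1.82 (1.66). gh18-5, of the family that holds chitinases, was higher in starved 1 to 3 at 41.9 to 48.2, with 20.8 to 24.6 in 4 to 6 and 12.4 to 24.3 in full medium (1.48 and 0.50). Its call over all 6 (1.02) was lost in 6 of the leave-outs and under 2 other scalings, where it came to 0.89 to 0.99.

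Of 7 phosphate uptake genes 1 differed between the sets by the test, higher in starved 1 to 3, against 5.26% of all genes. It was pho-4, a phosphate permease, at 23.7, 15.1 and 31.3 scaled FPKM, 4.68, 6.80 and 6.52, and 5.22 to 7.14 in full medium. pho-4 was the gene with a symbol that rose in starved 1 to 3 (1.71, SE 0.25, adjusted p = 4.7e-08), not in 4 to 6 (-0.05), with the sets differing (1.75, adjusted p = 4.0e-07). pho-5, the other high-affinity phosphate permease, rose in both at 15.5, 11.3 and 25.8, 10.6, 9.85 and 9.58, and 2.57 to 4.06 (2.15 and 1.48), and its set difference was not called (0.68, adjusted p = 0.11). cys-14, a sulfate permease, was at 145, 31.8 and 78.5, 11.3, 13 and 14.8, and 42.0 to 55.3, lower in starved 4 to 6 (-1.78) and not called in 1 to 3 (0.60; set difference 2.37, adjusted p = 5.0e-14).

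Both vitamin B6 synthesis genes were called lower in starved 4 to 6, against 12.1% of all genes. They were named by the size of their change. pdx-1 was at 867, 460 and 446 scaled FPKM, 57.8, 76.6 and 82.7, and 1160 to 1630 in full medium (-1.21 and -4.17; -0.97 for starved 1 to 3 without scaling). pdx-2 was at 67.6 to 96.7, 13 to 16.2 and 114 to 129 (-0.60, not called, and -2.97). The copper transporter gene tcu-1 fell in starved 4 to 6 (4.54 ± 0.513 against 25.3 ± 7.11; -2.21) and was at 17.4 ± 6.43 in starved 1 to 3 (-0.54). Catalase genes differed: cat-2, a catalase-peroxidase, rose in both at 17.1 to 22.8, 77.2 to 91.8 and 4.75 to 6.58 (1.63 and 3.65), while cat-3, the large-subunit catalase of growing hyphae, fell in starved 4 to 6 alone at 13 to 13.6, with 29.8 to 58.4 and 37.5 to 71.9 (-1.94 and, in 1 to 3, -0.44). The call of cat-3 over all 6 (-1.16) was lost without the starved library numbered 2 or 6 in the joint table (-1.0 and -0.99).

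Genes with large changes in both sets included some outside these lists. ph7 (NCU08147) was at 103, 228 and 181 scaled FPKM, 306, 282 and 298, and 15.3 to 22.7 in full medium (3.11 and 3.98; SE 0.18 each). fdh, formate dehydrogenase, was at 42.4, 56.6 and 128, 48.9, 41.2 and 41.9, and 6.64 to 8.19 (3.02 and 2.41). lao, L-amino acid oxidase, which releases ammonium from amino acids, was at 86.5, 779 and 282, 86.2, 81.8 and 94.1, and 26.1 to 42.1. It rose more in starved 1 to 3 (2.89 and 1.28), and that set difference of 1.60 came to 0.83 without library 2. rib-3 behaved alike at 99.7, 940 and 535, 118, 137 and 144, and 33.1 to 47.4 (3.15 and 1.68; set difference 1.47, or 0.80 without starved library 2). dak-1, dihydroxyacetone kinase, was at 56.5 to 86.5, 103 to 115 and 17.1 to 28.9 (1.73 and 2.33).

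On the lower side fkr-4, by its name an FK506-binding protein, was at 18.4, 5.38 and 24.6, 16.4, 15.1 and 16.2, and 104 to 168 (-3.24 and -3.04). cyt-19, a helicase for splicing mitochondrial introns, was at 7.41, 3.55 and 10.4, 12.4, 9.15 and 10.7, and 44.9 to 63.3 (-2.91 and -2.29). un-18 was at 1.04 to 3.94, 2.50 to 3.20 and 17.6 to 20.6 (-2.56 and -2.41), and rbg-40 at 2.49 to 4.37, 1.25 to 1.77 and 18.3 to 30.2 (-2.52 and -3.30). acw-5, named as a cell wall protein, was the gene of 27 in its list called lower over all 6 (-1.38), against 8.78% of all genes. Its call in starved 1 to 3 (-1.09) was lost without starved library 2 or 3 (-0.94 and -0.97), with separate controls (-0.99) and without scaling (-0.85). Among genes without a symbol, the largest rise was NCU09406 (supercontig 12.7, 1217822 to 1220555), at 19.2, 196 and 75.5 scaled FPKM, 62.1, 50.7 and 56.0, and 0.704 to 1.03 in full medium (5.16 and 4.92). The largest fall was NCU03092 (supercontig 12.1, 4518471 to 4520961), at 13.4, 3.20 and 16.1, 8.21, 6.37 and 6.96, and 186 to 249 (-4.45 and -4.76). Neither differed between the sets by the test (adjusted p = 0.70 and 0.54), although starved library 2 was highest for the first and lowest for the second.

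Several lists held 0 calls over all 6 libraries: 30 proteasome genes, 29 of complex I, 20 peroxins, 19 signalling kinases, 14 of the vacuolar ATPase, 9 histones, 7 of the quinate cluster, 6 of heterokaryon incompatibility, 5 of sulfur metabolism and 3 of glycogen and trehalose. Of these 142 genes limma gave 71 an unadjusted p under 0.05 and 67 an adjusted p under 0.05, with differences under 1 log2. The proteasome genes had a median of 0.45 in starved 1 to 3 and -0.34 in 4 to 6, with 0 called against full medium in either. Between the sets 7 were called higher in starved 1 to 3 than in 4 to 6, against 5.26% of all genes. Among them were pca-1 (0.74 and -0.56) and rpn-10 (0.65 and -0.48). Against full medium 27 of the 30 had an unadjusted p under 0.05 in starved 1 to 3 and 22 in 4 to 6. The vacuolar ATPase genes had medians of 0.52 and 0.03, with 0 calls and 0 set differences, and an unadjusted p under 0.05 in 13 and 6 of 14 against full medium and in 11 of 14 between the sets.

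Other named genes called in starved 4 to 6 and not in 1 to 3, with the sets differing, were stk-44, a kinase gene by its name, at 2.37 to 4.19, 15.9 to 23.8 and 1.22 to 1.51 scaled FPKM (0.85 and 3.12, with every library of both sets above the full medium), and cut-1, at 93.4 to 163, 463 to 551 and 101 to 142 (-0.03 and 2.04). The call of cut-1 over all 6 (1.03) was lost without the starved library numbered 2, 3 or 6 (0.81, 0.84 and 0.86) or full medium 4 (0.95), all by joint table number, and in a fit of only these 11 libraries. Lower there were npd-1, at 55.2 to 61.7, 3.23 to 4.04 and 23.8 to 41.5 (0.98 and -2.73; set difference 3.72, adjusted p = 7.4e-26), and gst-4, a glutathione S-transferase gene by its name, at 29.2 to 49.0, 4.22 to 5.35 and 22.5 to 31.7 (0.34 and -2.34). Starved 1 to 3 lay above every full medium library for npd-1, and the call there was made with separate controls (1.22).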

How the data were processed

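The genome build and whether strand was used in counting are not given in the sources used, so overlapping genes are uncertain. FPKM values were deposited by the authors per sample and in a joint table; reads were aligned with HISAT2 2.1.0 and quantified with Cufflinks and Cuffnorm 2.2.1, per the submitters' processing notes. Coordinates are those of the authors' files. The joint table (9598 entries, 153 of them merged genes) was used by group, because the numbers of 51 of its 86 columns, 7 of these 11, differ from the label numbers. The 2 starved sets were taken from the per-sample values (9758 genes, 7 with a failed estimate left out) after median-ratio scaling. Entries with at least 1 FPKM in 3 samples were fitted as log2(FPKM + 1) with limma 3.58.1 in R 4.3.3, giving each group its own mean across the 86 samples and a trended prior; p-values were adjusted by Benjamini-Hochberg across every entry tested. Tables were made with pandas 2.3.3 and numpy 2.4.6 and plots with matplotlib 3.10.9, under Python 3.11.15, and the fit was tested on simulated data. Depth was estimated from the FPKM intervals in the files, and it sets the precision of genes with few fragments. Symbols came from RefSeq's gene table, which held 9757 of the 9758 IDs and gave 1118 a symbol.

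Genes named were a fixed panel of nitrogen genes, up to 4 called members of each list, the 8 largest changes with a symbol in each direction and agreement class, and the largest change without a symbol. The comparison, the lists and this rule were chosen with earlier results of these data known; 6 lists were added after the symbols were read, and other list members named were chosen after their values were seen. The alternatives tried were another pseudocount, other filters, other scalings, a fit of only the 2 groups, separate controls for each set, the replicate number as a block and leaving out each library.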

Additional observations from a re-analysis of the deposited data

Results flagged for a closer look

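Of 222 groups of libraries examined for 111 named genes, 11 held a library far from the others of its group; chance flags about 1 in 20. Among the starved libraries nit-2 was at 45.5 scaled FPKM in library 1 against 31.8 to 36.1 in the others, and xdh-1 was at 15.4 in library 1 against 41.8 to 58.8. fdh was at 128 in library 3 against 41.2 to 56.6, and fkr-4 was at 5.38 in library 2 against 15.1 to 24.6.

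Among the full medium libraries ccg-1 was at 3100 in library 5 against 1020 to 1280, and aro-6 at 145 in library 5 against 163 to 168. Library 4 was highest for spe-1 (310 against 254 to 264), ad-7 (60.1 against 55.1 to 56.2) and ad-4 (165 against 136 to 142). xdh-1 was at 12 in library 1 against 10.9 to 11.2, and pho-5 at 4.06 in library 3 against 2.57 to 2.94.

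The 2 starved sets carry the same label and differed by the test, with 458 genes higher and 551 lower in libraries 1 to 3 than in 4 to 6.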

How the results depend on the processing

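Of 193 gene counts under other settings, 184 stayed within 1.5 times the reported count. With a pseudocount of 0.1 the genes higher over all 6 libraries numbered 1041, those lower in starved 1 to 3 than in 4 to 6 926 and those higher in both sets 471. Starved 1 to 3 alone gave 443 higher and starved 4 to 6 alone 1103. Without scaling 728 genes were higher in starved 1 to 3, 528 higher in both sets and 11 opposite, and separate controls gave 14 opposite. The causes were not tested.

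Of 2219 values of the 111 named genes, 2114 kept their direction and call, 71 lost the call, 28 gained it and 6 reversed. All 6 reversed over starved 1 to 3 alone: nit-3 (3.04), nit-6 (1.3), nit-10 (1.95), eas (-0.20), ccg-14 (0.59) and cut-1 (-0.03).

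Leaving out 1 library gave 622 to 745 genes higher and 691 to 851 lower over all 6, 420 to 516 and 544 to 661 for starved 1 to 3, and 1077 to 1119 and 1035 to 1066 for starved 4 to 6. Between the sets it gave 419 to 488 and 551 to 571, with 288 to 344 higher in both, 511 to 585 lower in both and 7 to 10 opposite.

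With the replicate number as a block 554 genes were higher and 726 lower, against 567 and 724 in the same libraries without the block. Same-numbered libraries correlated at -0.076 to 0.153 in their deviations, so the numbers were not taken as pairs. Depth limits genes with few fragments, and starved 1 to 3 and full medium 1 to 3 were the shallower libraries.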

Other observations

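Other genes measured in the starved libraries of the other strains are given as values. am was at 520, 789 and 162 scaled FPKM in starved Δnmr and at 173, 272 and 186 in the starved libraries labelled Δnit-4, and gdh-1 at 14.8, 14.9 and 19.7 and at 28.9, 28.4 and 26.2. nmr was at 1.28, 1.36 and 1.52 in the libraries labelled Δnmr, and at 14.7, 14 and 15.9 in those labelled Δnit-4. con-8 was at 12.4, 8.19 and 27.2 and at 43.0, 25.3 and 45.3.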
